A study of Rattus norvegicus with 6 samples.

Results

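The genes described are those of the runt-domain transcription factors RUNX1, RUNX2 and RUNX3, of their shared partner CBFB, and of osterix (Sp7). They were taken from the RNA-seq table by gene symbol, ignoring case, which found 5 genes of 27217, each with a single entry (Runx1 ENSRNOG00000001704, Runx2 ENSRNOG00000020193, Runx3 ENSRNOG00000018058, Cbfb ENSRNOG00000014647, Sp7 ENSRNOG00000014082). The series holds 3 RNA-seq libraries of RCS cells, a line derived from a rat chondrosarcoma, a malignant cartilage tumour, and 3 of rib tissue of neonatal rats. No treatment, genotype or strain is given for either group in the sources used here. Replicates are described as biological, with no library tied to a culture or an animal, so p-values measure only the spread between these libraries. RCS cells are a single tumour line and a piece of rib holds several tissues, which limits both as models of a cartilage cell.

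RUNX factors bind DNA through the runt domain, and CBFB, which does not touch DNA itself, holds that domain in its binding form. RUNX1 is best known as a factor of blood stem cell formation, RUNX2 as the factor without which neither osteoblasts nor mature hypertrophic cartilage form, and RUNX3 as a factor of T cells and sensory neurons that also acts beside RUNX2 in maturing cartilage. Osterix is a zinc-finger factor of the SP family that acts after RUNX2 on the way to the osteoblast. Hypertrophic chondrocytes are the enlarged cells at the end of the growth plate that precede bone.

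Promoters are printed for the 3 RUNX genes, to show which hold a match to the motif that RUNX factors bind. Those of Bglap (osteocalcin) and Mmp13 (a collagenase) are printed because both are textbook RUNX2 targets whose levels are given further on. Both hold a match, which most windows of the target genes did not, so the printed windows do not represent the targets. Sequences are RefSeq promoter windows of the assembly GRCr8, the 250 bases before the annotated start site, 5′ to 3′ on the gene's strand. Capitals mark ACCACA, a spelling of that motif's core, searched on both strands (TGTGGT on the other). Other spellings of the core were not searched, so a window without capitals can still hold one. Of the 5 members, 4 (not Sp7) had a window and Runx2 and Runx3 had 2 each, which made 6 windows.
Runx1, chr11:45421326-45421575, minus strand: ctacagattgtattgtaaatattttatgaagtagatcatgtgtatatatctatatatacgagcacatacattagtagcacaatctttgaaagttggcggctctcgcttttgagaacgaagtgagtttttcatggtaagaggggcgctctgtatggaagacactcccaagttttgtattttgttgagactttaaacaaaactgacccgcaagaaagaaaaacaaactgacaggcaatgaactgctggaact
Runx2, upstream start site, chr9:23664808-23665057, plus strand: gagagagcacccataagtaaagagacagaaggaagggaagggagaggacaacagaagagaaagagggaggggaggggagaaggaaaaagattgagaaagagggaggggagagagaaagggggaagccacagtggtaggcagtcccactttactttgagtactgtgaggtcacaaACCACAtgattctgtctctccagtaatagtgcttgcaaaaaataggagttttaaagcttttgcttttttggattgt
Runx3, upstream start site, chr5:152644020-152644269, plus strand: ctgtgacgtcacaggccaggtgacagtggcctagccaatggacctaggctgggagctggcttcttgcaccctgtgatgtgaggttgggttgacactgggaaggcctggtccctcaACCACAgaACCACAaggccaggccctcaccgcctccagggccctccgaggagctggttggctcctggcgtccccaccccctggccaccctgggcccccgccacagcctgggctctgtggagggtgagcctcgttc
Bglap, chr2:176137319-176137568, minus strand: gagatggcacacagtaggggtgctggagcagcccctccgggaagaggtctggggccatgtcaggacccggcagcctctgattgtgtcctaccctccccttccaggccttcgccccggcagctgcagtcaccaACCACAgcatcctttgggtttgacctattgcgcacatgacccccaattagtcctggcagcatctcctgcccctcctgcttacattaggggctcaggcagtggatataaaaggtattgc
Mmp13, chr8:12782579-12782828, plus strand: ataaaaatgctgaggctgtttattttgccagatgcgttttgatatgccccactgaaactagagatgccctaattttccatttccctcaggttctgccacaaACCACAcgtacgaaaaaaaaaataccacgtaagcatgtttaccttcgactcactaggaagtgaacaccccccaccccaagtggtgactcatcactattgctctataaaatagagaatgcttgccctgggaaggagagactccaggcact

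ACCACA lay 76 bases before the upstream start site of Runx2 and 118 and 149 bases before those of Bglap and Mmp13. The upstream window of Runx3 held it at 135 and 127 bases before the start. The Runx1 and Cbfb windows and those of the downstream start sites of Runx2 and Runx3 held no match, which says only that these letters are not in those 300 bases. Runx2 had 2 further matches after its start site, in a stretch of 26 bases at chr9:23665080-23665105 on the plus strand (bases 23 to 48 of the transcript), printed to compare it with Runx3.
Runx2, after the start site: aaacaACCACAgaACCACAagtgcgg
Run shared by Runx2 and Runx3: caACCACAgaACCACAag

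The shared run was 18 bases long and stood 137 to 120 bases before the upstream start site of Runx3. The pair of matches with exactly ga between them occurred in 2 of the 33469 rat promoter windows searched, which are these. Those letters were taken from these windows, and pairs with other letters between them were not counted. The count therefore does not measure how rare the spacing is. ACCACA alone was in 17.3% of all windows of 300 bases and the longer AACCACA, which contains it, in 5.57%. Of 12 windows of the bone target genes described further on, 2 held ACCACA (16.7%), and of 6 windows of the hypertrophic cartilage targets 1 did (16.7%). ACCACA was in 2 of 6 windows of the members (33.3%), 3 of 11 of the blood genes (27.3%), 2 of 9 of the enzymes (22.2%) and 1 of 20 of the co-activators (5.0%). It was in 0 of 15 of the upstream factors, 0 of 19 of the co-repressors and 0 of 7 of the SP family. A match is a run of letters and not evidence of binding.

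**Figure D1:**
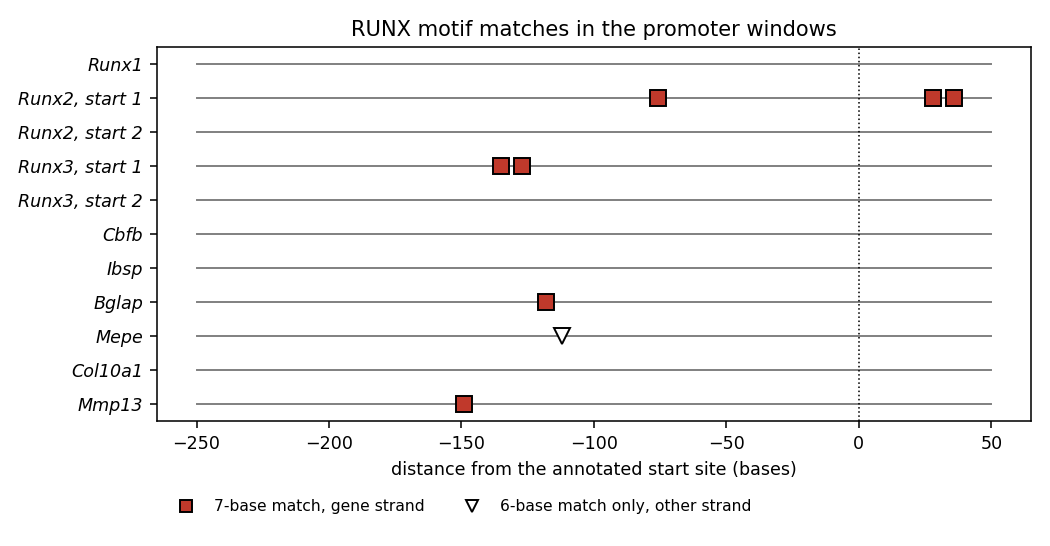
Positions of ACCACA in promoter windows from 250 bases before to 50 after the annotated start site (x axis, in bases; dotted line, start site), one line per window, for the members with a window and 5 target genes. Red squares lie within AACCACA on the gene's strand and the open triangle is ACCACA alone on the other strand; Runx2 holds 3 matches, Runx3 holds 2, and Runx1 and Cbfb hold 0.

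Values are taken, from the steps of the low values, to be normalized counts. These are reads divided by 1 factor per library and not by gene length, so the levels of different genes are not compared with each other. Tests ran on log2(normalized count + 1), and a difference is RCS cells minus rib tissue. By an estimate from the low values, RCS libraries held 6000000 to 8520000 reads and rib libraries 5320000 to 7490000. Of the genes tested, 76.5% passed an adjusted p of 0.05 in limma, 32.9% as higher in RCS cells and 43.6% as lower, and at 78.9% the groups did not overlap. Differences of at least 2-fold were called in 14.1% of genes as higher and in 33.1% as lower. The median gene differed by -0.15, so a difference near 0 depends on how the libraries are scaled. Quantile normalization moved the median gene by 0.42 towards RCS cells, scaling to the median over the genes tested by 0.29 towards them, and scaling each library to its median over genes above 0 by 0.29 towards rib tissue. The share of called genes that were higher in RCS cells was 43.0% as deposited, 58.5% under quantile normalization, 31.2% under scaling to the library median and 53.3% under scaling to the median of genes tested. The 6 cartilage markers were abundant in both groups, with sums of 49840 to 68630 normalized counts in RCS libraries and 95640 to 163100 in rib libraries.

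Of the 5 members, 1 was called lower in RCS cells (Runx1), 1 higher (Runx3) and 3 neither, a called share below the 76.5% of all genes, and the groups did not overlap at 4, near the 78.9% of all genes without overlap. Runx1 had the largest difference of the 5. It stood at 19.4, 22.9 and 24.4 normalized counts in RCS cells replicates 1 to 3 and at 652, 613.5 and 710.3 in rib tissue replicates 1 to 3. All RCS libraries were far below all rib libraries, and the RCS values rest on an estimated 35.7, 44.2 and 34.4 reads. On the log2 scale the means were 4.53 ± 0.16 and 9.36 ± 0.11 (SD, n = 3), a difference of -4.83 (SE 0.13, 95% interval -5.12 to -4.53, limma with Benjamini-Hochberg adjusted p = 2.87e-08), or 28.4-fold higher in rib tissue. Among all genes tested, 9.25% had a larger difference in either direction, and 15.1% were called at least 10-fold lower in RCS cells. The difference ran from -5.12 to -4.09 over 18 alternative settings and passed the test in each.

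RUNX1 is made in many blood cells, whose markers are given beside this value with those of other cells a rib can hold. Of 8 leukocyte markers, 6 were called lower and 1 higher in RCS cells, 3 (Ptprc, Itgam and Tyrobp) were listed at 0 throughout the RCS libraries, and the sum of the 8 was 33.9 to 46.0 normalized counts in RCS libraries, against 514.4 to 1155 in rib libraries. Among the rib libraries, replicate 3 had the lowest leukocyte sum (514.4, against 1155 and 1154) and the highest Runx1 (710.3). Runx1 ranged over only 0.211 log2 units among these libraries, a range that 79.1% of genes exceeded. The fibroblast, endothelial, osteoclast, erythroid and muscle sums were also lowest in replicate 3. Markers of fibroblasts and perichondrium summed to 651 to 671 in RCS cells against 17890 to 24080 in rib tissue, and endothelial markers to 5.49 to 21.0 and 1885 to 2982. Osteoclast markers summed to 4.90 to 9.61 and 587.7 to 1247, erythroid and megakaryocyte markers to 13.8 to 16.6 and 168.5 to 324.7, and muscle markers to 12.2 to 20.8 and 15010 to 26640. Of the markers, Dcn, Prrx1, Cdh5, Kdr, Emcn, Acp5, Ocstamp, Calcr, Gata1, Pf4 and Gp9 were also at 0 in each RCS library. The part of these cells in the Runx1 difference was not tested, and in bulk tissue fewer cells of a type and less RNA per cell cannot be told apart.

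**Figure D2:**
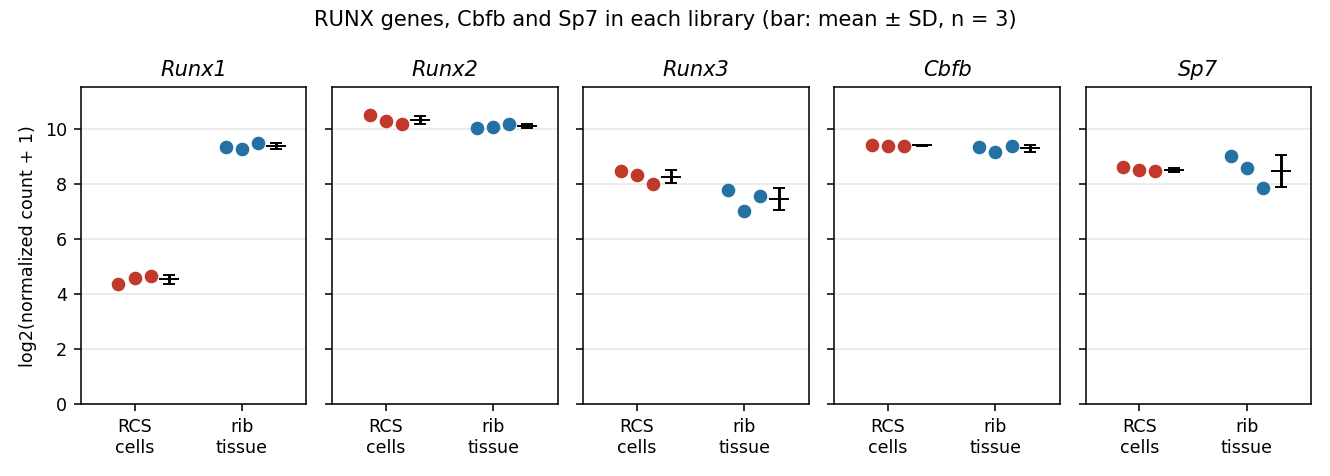
Log2(normalized count + 1) of each member (y axis) in each of the 3 RCS libraries (red) and 3 rib tissue libraries (blue), replicates 1 to 3 from left to right, with mean ± SD as the black bar. Runx1 lies near 4.5 in RCS cells and near 9.4 in rib tissue, while the other members differ by less than 1, and Sp7 is spread over more than 1 unit among the rib libraries.

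Runx2 was abundant in both groups. It stood at 1432, 1253 and 1157 normalized counts in RCS cells and at 1039.9, 1064 and 1152 in rib tissue. The lowest RCS library lay just above the highest rib library, so the groups did not overlap, by a margin of less than the spread within either group. The difference was 0.23 (SE 0.10, interval 0.01 to 0.46), 1.18-fold, and did not pass the test (limma with Benjamini-Hochberg adjusted p = 0.0541). It passed the test as higher under quantile normalization (0.51), scaling to the median of genes tested (0.53), cyclic loess (0.32), array weights (0.25) and without RCS cells replicate 3 (0.305), and turned to -0.06 under scaling to the library median. Set against the median gene in each of 6 scalings, Runx2 was 0.24 to 0.39 above it.

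Runx3 was higher in RCS cells. It stood at 355.4, 317.6 and 252.5 normalized counts in RCS cells and at 217, 129 and 187.3 in rib tissue. Every RCS library lay above every rib library. The log2 means were 8.26 ± 0.25 and 7.45 ± 0.38 (SD, n = 3), a difference of 0.81 (SE 0.20, interval 0.34 to 1.28, limma with Benjamini-Hochberg adjusted p = 0.00634), or 1.75-fold. The difference ran from 0.51 to 1.10 over 18 alternatives and passed the test in each, with the adjusted p at most 0.0498, reached with no filter on low values. It was 0.60 without rib tissue replicate 2, the library with the lowest value.

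Cbfb, the shared partner, was nearly even between the groups. It stood at 685.3, 667.7 and 663.4 normalized counts in RCS cells and at 640.8, 567 and 660.1 in rib tissue. There was no overlap, but the lowest RCS library lay only just above the highest rib library. The difference was 0.11 (SE 0.08, interval -0.07 to 0.30) and did not pass the test (limma with Benjamini-Hochberg adjusted p = 0.234). It was called higher under quantile normalization (0.22) and scaling to the median of genes tested (0.41) and turned to -0.18 under scaling to the library median. As deposited, the interval reached from 1.05-fold higher in rib tissue to 1.23-fold higher in RCS cells.

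**Figure D3:**
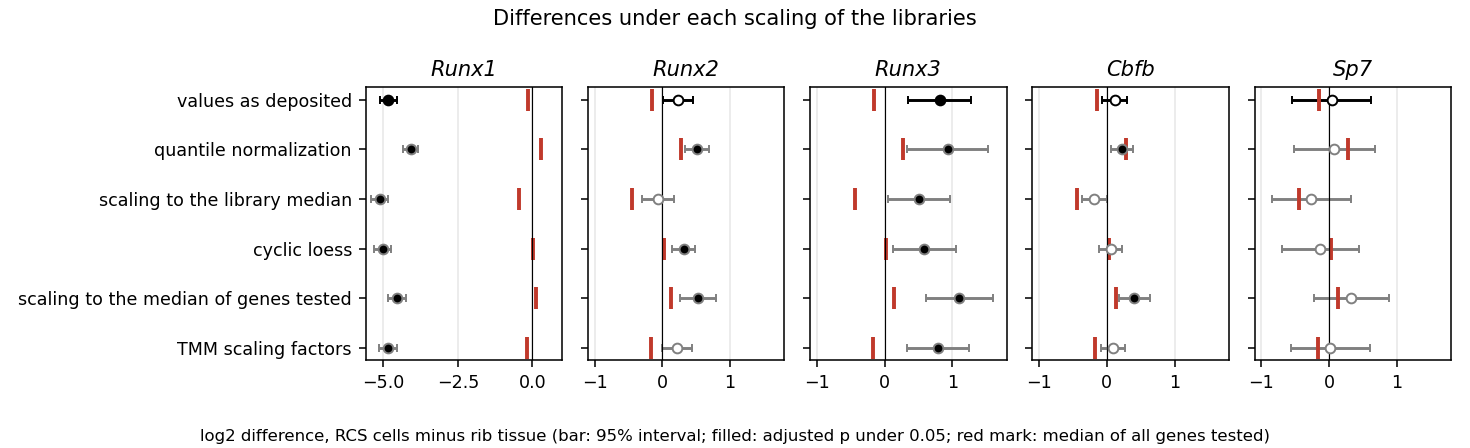
Difference of each member, RCS cells minus rib tissue in log2 units (x axis; Runx1 has its own axis range), with its 95% interval, as deposited and under 5 scalings (rows); filled points passed an adjusted p of 0.05 and red marks show the median gene. Runx1 stays between -5.12 and -4.09 and Runx3 between 0.51 and 1.10, while Runx2, Cbfb and Sp7 lie on both sides of 0.

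Ratios between members within a library do not depend on the scaling by 1 factor per library. The log2 ratio of Runx1 to Cbfb was -5.14, -4.86 and -4.77 in RCS cells against 0.03, 0.11 and 0.11 in rib tissue, a 32.1-fold shift. The ratio of Runx3 to Cbfb was -0.95, -1.07 and -1.39 in RCS cells and -1.56, -2.14 and -1.82 in rib tissue, a shift of 0.70. The ratio of Runx2 to Cbfb was 1.06, 0.91 and 0.80 in RCS cells against 0.70, 0.91 and 0.80 in rib tissue, so the groups overlapped, with a shift of 0.12. The ratio of Runx1 to Runx2 shifted by -5.13 and that of Runx1 to Runx3 by -5.71. Of the 10 pairs of members, 6 did not overlap between the groups. Each of these had a two-sided exact permutation p of 0.1, the smallest that 3 libraries against 3 allow, or 0.167 adjusted over the 10 pairs. All pairs with Runx1 were among the 6, and pairs that share a gene are not independent. The share of all gene pairs without overlap was not computed, while single genes did not overlap at 78.9%.

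Sp7 was near even in its mean and wide in its spread among rib libraries. It stood at 386.7, 356.4 and 349.4 normalized counts in RCS cells and at 512.2, 378.8 and 229.5 in rib tissue. The RCS values lay inside the range of the rib values, with replicate 1 of the rib above them and replicate 3 below. The difference was 0.04 (SE 0.25, interval -0.54 to 0.62, limma with Benjamini-Hochberg adjusted p = 0.9), and it turned to -0.26 under scaling to the library median, -0.13 under cyclic loess, -0.07 with array weights and -0.01 without RCS cells replicate 1. Without rib tissue replicate 3 it was -0.28, and without rib tissue replicate 1 it was 0.30, so the sign rested on which rib library was used.

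The rib libraries in which Sp7 was high and low were those in which most bone genes were. Sp7 ranged over 1.15 log2 units among the 3 rib libraries, and 12.7% of the genes tested had a larger range, while Runx2 ranged over 0.15, a range that 88.0% of genes exceeded. Ibsp (bone sialoprotein) stood at 10.28, 9.67 and 7.06 on the deposited log2 scale in rib tissue replicates 1 to 3, Dmp1, an osteocyte matrix gene, at 8.32, 8.09 and 3.75, and Bglap at 7.11, 6.52 and 4.22. Of the 15 bone targets tested, 10 were highest in replicate 1 and lowest in replicate 3 with replicate 2 between (66.7%), the pattern of Sp7, against 20.6% of all genes tested. The pattern was also that of 4 of the 8 hypertrophic cartilage targets, 40.9% of the upstream factors, 40.0% of the enzymes and of the SP family, 33.3% of the blood list, 31.8% of the co-repressors and 18.8% of the co-activators described further on. The 7 osteoblast and osteocyte markers are all bone targets counted above. Col1a1, at 15.41, 14.58 and 14.22 on the deposited log2 scale, made up most of their sum. Of the 7, Phex and Mepe were highest in replicate 2 and Ifitm5 was lowest there. The sum fell in the pattern of Sp7, with 45720, 26100 and 19440 normalized counts in replicates 1 to 3. So did the sums of osteoclast markers (1247, 869.9 and 587.7), muscle markers (26640, 23410 and 15010) and fibroblast markers (24080, 21230 and 17890). Leukocyte sums (1155, 1154 and 514.4) were almost equal in replicates 1 and 2. Endothelial sums (2288, 2982 and 1885) and erythroid and megakaryocyte sums (323.3, 324.7 and 168.5) were highest in replicate 2. The cartilage marker sum was lowest there (163100, 95640 and 159100). In RCS cells the 7 osteoblast and osteocyte markers summed to 58.5 to 82.9, with Dmp1 listed at 0 in every library. The part of cell content in the Sp7 spread was not tested.

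**Figure D4:**
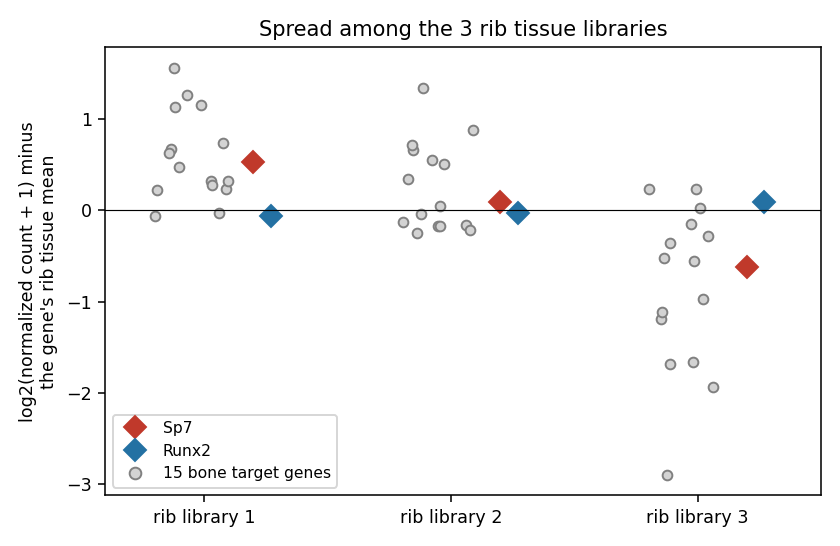
Log2(normalized count + 1) minus the gene's own mean over the rib libraries (y axis), in each rib library (x axis), for 15 bone target genes (grey), Sp7 (red) and Runx2 (blue). Sp7 sits high in library 1 and low in library 3 with most bone genes, a range of 1.15, while Runx2 stays within 0.15.

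Genes that RUNX2 and osterix are known to switch on in bone were mostly lower in RCS cells. Of 16 bone targets, 15 were tested, of which 10 were lower, 1 higher and 4 neither, and the median difference was -1.74, beside -0.15 over all genes tested. The called share, 73.3%, was close to the 76.5% of all genes, of which 43.6% were lower. Col1a1, the main collagen of bone, was at 5.05 ± 0.22 against 14.73 ± 0.61 (SD, n = 3), with a limma Benjamini-Hochberg adjusted p of 3.84e-08, and Col1a2 at 3.87 ± 0.19 against 13.04 ± 0.66. The receptor gene Fgfr2 was 2.82-fold higher in rib tissue. Tnfrsf11b, osteoprotegerin, the decoy that restrains osteoclast formation, was 1.59-fold higher in RCS cells (9.64 ± 0.10 against 8.97 ± 0.21). Bglap was at 1.21 ± 1.10 in RCS cells against 5.98 ± 1.49 in rib tissue, Ibsp at 2.75 ± 0.29 and 9.01 ± 1.70, and Spp1 (osteopontin) at 7.81 ± 0.18 and 9.49 ± 0.85.

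Alpl, Pth1r and Mepe were among the bone targets that did not pass the test. Alpl, the phosphatase of mineralizing cells, was at 9.48 ± 0.12 in RCS cells against 9.78 ± 0.34 in rib tissue, and Pth1r, the receptor of the PTHrP signal, at 9.14 ± 0.19 and 9.38 ± 0.30. Alpl passed the test as lower without rib tissue replicate 3 (-0.47), under scaling to the library median (-0.59) and with array weights (-0.37), and Pth1r under scaling to the library median (-0.54). Mepe, a matrix gene of osteocytes, was between 3.09 and 3.65 on the deposited log2 scale in RCS cells and at 1.58 in rib tissue replicate 3, and its difference of 0.39 turned to -0.17 without rib tissue replicate 3. Mepe was called higher under quantile normalization (2.65) and cyclic loess (2.11). Dmp1 and Tnfsf11 were tested although listed at 0 throughout the RCS libraries, and could only come out lower. Phex was listed at 0 in 2 RCS libraries and Bglap in 1, and both met the filter on low values only through rib tissue. Under cyclic loess 3 of the bone targets were called higher and 9 lower.

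RUNX targets of hypertrophic cartilage were lower in RCS cells. Of the 8 genes, all tested, 8 were called lower as deposited, with a median difference of -5.42 beside -0.15 over all genes, of which 43.6% were called lower. Under quantile normalization, and under scaling to the median of genes tested, 7 were called lower. Col10a1, the collagen of hypertrophic cartilage, was at 2.89 ± 0.30 in RCS cells against 10.76 ± 0.95 in rib tissue, and Ihh, the hedgehog signal of prehypertrophic cells, at 1.36 ± 0.31 against 8.32 ± 0.41. Mmp13 was at 3.25 ± 0.55 and 8.81 ± 1.66. Adamts5, an aggrecan-cleaving enzyme, was 4.33-fold higher in rib tissue and Vegfa, the vessel growth factor, 1.47-fold, a difference not called under scaling to the median of genes tested (-0.26). Fgf18 was listed at 0 throughout the RCS libraries and so could not come out higher. In the same RCS libraries Runx2 stood at 1157 to 1432 normalized counts. The part of cell content in the differences of these targets was not tested. Ihh is also on the list of upstream factors.

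**Figure D5:**
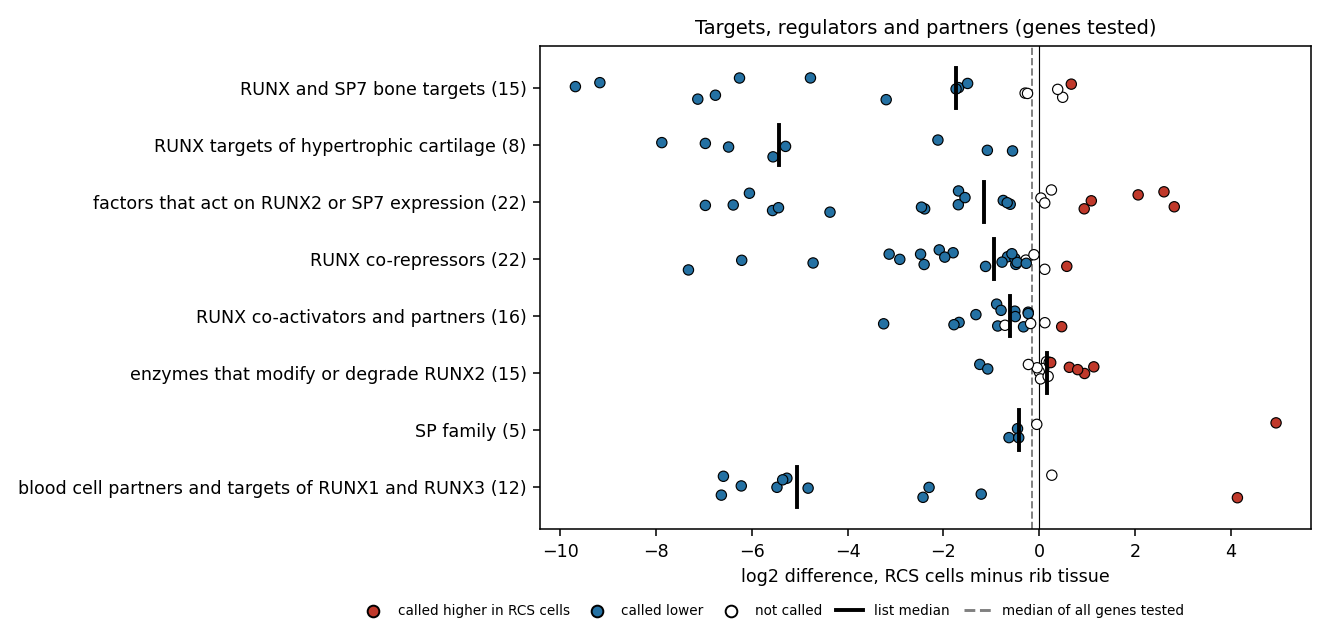
Differences of the tested genes of 8 lists of targets, regulators and partners (x axis, log2 units, RCS cells minus rib tissue; number tested in brackets), coloured by call, with the list median (black bar) and the median of all genes tested (dashed). Targets in hypertrophic cartilage and blood cell genes lie mostly below -2, while enzymes that act on RUNX2 lie around 0.

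Factors known to act upstream of Runx2 and Sp7 were split. Of 22 genes, 5 were higher in RCS cells (Msx1, Nkx3-2, Dlx6, Dlx5 and Gli1), 14 lower and 3 neither (Foxa2, Bmpr1a and Ctnnb1), with a median difference of -1.15, beside -0.15 over all genes. The called share was 86.4%, beside 76.5% of all genes, of which 32.9% were higher and 43.6% lower. Msx1, a homeobox factor, was at 6.58 ± 0.09 in RCS cells against 3.76 ± 0.19 in rib tissue. Nkx3-2, a repressor of Runx2 in immature cartilage, stood at 9.01, 8.98 and 8.88 on the deposited log2 scale in RCS cells and 6.38, 5.96 and 6.67 in rib tissue, a 6.08-fold difference (limma with Benjamini-Hochberg adjusted p = 2.53e-06). Dlx5 and Dlx6, neighbouring homeobox genes of bone and cartilage, were 2.13-fold and 4.19-fold higher, and Gli1, a readout of hedgehog signalling, 1.92-fold higher. Of the 22, Bmp2 met the filter on low values only through rib tissue, and 3 were listed at 0 throughout the RCS libraries and could not come out higher. Bmp4, a ligand that induces Runx2, was one of them and stood at 6.39 ± 0.42 in rib tissue. Its receptor gene Bmpr2 was 1.68-fold higher in rib tissue, while Bmpr1a differed by 0.04. Bmpr1a was called lower under scaling to the library median (-0.26) and higher under quantile normalization (0.19) and scaling to the median of genes tested (0.33). Foxa2, a forkhead factor, differed by 0.26, was called higher under quantile normalization (1.32) and scaling to the median of genes tested (0.54), and was at -0.04 under scaling to the library median. Ctnnb1, beta-catenin, differed by 0.12, was called higher under quantile normalization (0.82), cyclic loess (0.39) and scaling to the median of genes tested (0.41), and turned to -0.18 under scaling to the library median. Under quantile normalization and scaling to the median of genes tested 8 genes were called higher and 13 lower.

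Co-repressors of RUNX factors were mostly lower in RCS cells. Of 22 genes, 18 were lower, 1 higher and 3 neither (Tle5, Hdac6 and Twist1), with a median difference of -0.95, beside -0.15 over all genes. The called share was 86.4%, beside 76.5% of all genes, with 43.6% of all genes lower. Tle5, which the table lists as Aes, differed by -0.28, Hdac6 by 0.12 and Twist1 by -0.11, and each of these changed sign under at least 1 other scaling. Tle5 passed the test as lower without rib tissue replicate 3 (-0.45), under scaling to the library median (-0.57), under cyclic loess (-0.41) and with array weights (-0.30), and Twist1 under scaling to the library median (-0.41). Hdac6 was called higher under quantile normalization (0.36) and scaling to the median of genes tested (0.41). Runx1t1, a co-repressor known as a fusion partner of RUNX1 in leukaemia, was listed at 0 throughout the RCS libraries and at 7.34, 7.48 and 7.12 on the deposited log2 scale in rib tissue. Its relative Cbfa2t3 was also listed at 0 throughout the RCS libraries and was at 6.21 ± 0.76 in rib tissue. Ncor1, which carries histone deacetylases to DNA, was 1.48-fold higher in rib tissue, whereas the deacetylase gene Hdac3 was 1.49-fold higher in RCS cells. Cbfa2t3, Runx1t1 and Twist2 passed the filter through rib tissue alone and could not come out higher. The list gave 2 higher and 12 lower under scaling to the median of genes tested, and 2 and 15 under quantile normalization. Scaling to the library median gave 1 higher and 20 lower.

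Co-activators and partners were mostly lower in RCS cells, by less than 2-fold at most genes. Of 16 tested, 12 were lower, 1 higher and 3 neither (Kat6a, Cebpb and Jun), with a median of -0.61, beside -0.15 over all genes, and 12 lay within 2-fold, as did 52.1% of all genes. The called share, 81.2%, was close to the 76.5% of all genes. Kat6a differed by 0.12, Cebpb by -0.18 and Jun by -0.71, and Kat6a and Cebpb changed sign under at least 1 other scaling. Kat6a was called higher under quantile normalization (0.36), cyclic loess (0.18) and scaling to the median of genes tested (0.41). Jun was called lower without rib tissue replicate 3 (-1.09) or RCS cells replicate 1 (-0.95), under scaling to the library median (-1.01), under cyclic loess (-0.92) and with array weights (-0.88), and Cebpb without rib tissue replicate 3 (-0.72). Crebbp, an acetyltransferase, was 1.85-fold higher in rib tissue, Smad3, a TGF-beta effector, 1.74-fold and Ets1, an ETS factor that binds beside RUNX, 3.43-fold, while the Smad3 call was lost under quantile normalization (-0.42). Nell1, a secreted factor of bone formation, was listed at 0 throughout the RCS libraries and at 3.25 ± 0.54 in rib tissue, so that it could not come out higher. Atf4, a partner of RUNX2 in osteoblasts, was 1.38-fold higher in RCS cells, a difference not called under scaling to the library median (0.17). Under quantile normalization 2 genes were called higher and 7 lower, and under scaling to the median of genes tested 2 and 8.

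Enzymes that modify RUNX2 or mark it for degradation were mostly near even between the groups. Of 15 genes, 5 were higher in RCS cells (Cdk1, Cdk4 and Mapk3 among them), 2 lower (Ccnd1 and Gsk3b) and 8 neither, a called share of 46.7% beside 76.5% of all genes, and the median was 0.15. Cdk1 and Cdk4, kinases of the cell cycle, were 2.20-fold and 1.93-fold higher, and Ccnd1, the cyclin partner of Cdk4, was 2.36-fold higher in rib tissue. Gsk3b was 2.10-fold higher in rib tissue. The kinase gene Mapk3 was 1.75-fold higher in RCS cells. The ubiquitin ligase genes Nedd4 and Wwp2 did not pass the test, with differences of 0.03 and -0.04, although Nedd4 was called higher under quantile normalization (1.07) and cyclic loess (0.49), turning to -0.27 under scaling to the library median, and Wwp2 was called higher under quantile normalization (0.52). The list gave 10 higher and 2 lower under quantile normalization and under scaling to the median of genes tested, and 4 and 4 under scaling to the library median.

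Within the SP family, to which osterix belongs, Sp6 was the gene called higher in RCS cells. Of 8 further genes of the family 5 were tested, with Sp1, Sp2 and Sp3 lower, Sp6 higher and Sp4 neither (-0.05). Sp5, Sp8 and Sp9 were listed at 0 in every library. The called share, 80.0%, was close to the 76.5% of all genes, of which 32.9% were higher and 43.6% lower. The median difference was -0.43, beside -0.15 over all genes. Sp6, best known from tooth and skin epithelium, stood at 5.78, 5.95 and 5.37 on the deposited log2 scale in RCS cells and at 0.60, 0.04 and 0 in rib tissue (limma with Benjamini-Hochberg adjusted p = 8.1e-06). It met the filter on low values through the RCS libraries, so that it could not have come out lower. Sp1, a widely expressed factor, was 1.37-fold higher in rib tissue, Sp3 1.34-fold and Sp2 1.55-fold. The calls of Sp1 (-0.16), Sp2 (-0.34) and Sp3 (-0.13) were lost under scaling to the median of genes tested, where Sp6 alone was called, and that of Sp2 also under quantile normalization (-0.13). Sp4 was called lower under scaling to the library median (-0.35) and cyclic loess (-0.28), and was at 0.02 under quantile normalization and 0.24 under scaling to the median of genes tested.

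Blood cell partners and targets of RUNX1 and RUNX3 were low in RCS cells. Of 16 genes, 12 were tested, with 10 lower, 1 higher and 1 neither, and a median of -5.05, beside -0.15 over all genes. The called share was 91.7%, beside 76.5% of all genes, with 43.6% of all genes lower. Under quantile normalization 2 were called higher and 8 lower. The gene not called was Gata2, which differed by 0.26, was called higher under quantile normalization (1.45) and scaling to the median of genes tested (0.55), and was at -0.03 under scaling to the library median. Fli1, an ETS factor of blood and vessel cells, was 5.37-fold higher in rib tissue. Cebpa, a myeloid factor, was at 0.34 ± 0.59 against 6.94 ± 1.15, and the T cell and macrophage receptor gene Cd4 at 0.90 ± 0.84 against 7.53 ± 0.36. Zbtb7b, a T cell factor, was 2.31-fold higher in rib tissue, a difference not called under quantile normalization (-0.53). Eomes, a T-box factor of T cells and embryonic lineages, ran against the list, at 4.31, 4.26 and 3.59 on the deposited log2 scale in RCS cells and listed at 0 in every rib library. Spi1 and Tal1 were listed at 0 throughout the RCS libraries and could not come out higher, nor could Eomes come out lower. Cebpa was listed at 0 in 2 RCS libraries and Cd4 in 1, and both met the filter on low values only through rib tissue.

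The patterns of the members over the 6 libraries were set against those of 7446 genes with a symbol and a mean of at least 100 normalized counts in both groups. Likeness was the root mean square difference in log2 units after each gene was centred on its own mean. Nearest to Runx1 were Mrc2, a collagen uptake receptor gene (0.27), Col6a3, a microfibril collagen gene (0.36), and Tnnt3, a fast muscle troponin gene (0.40), and no gene lay within 0.2. Runx1 itself was below 100 in RCS cells, so genes of its own low level were outside the comparison. Nearest to Runx3 were Kif7 (0.053), a cilium gene of hedgehog signalling, Cdc42bpg (0.11) and Rps2 (0.11), which has near-identical copies and is uncertain. In all, 182 genes lay within 0.2 of Runx3. Nearest to Sp7 were Tuba4a (0.070), Unc5b (0.097) and Ipo13 (0.10), with 60 genes within 0.2. Runx2 (Snrnp200 and Nup153 among the 3 nearest) and Cbfb (Clstn1, Capn2 and Arl16) had nearest genes at 0.023 to 0.037, but 2053 and 2234 genes lay within 0.2 of them, so a nearly flat pattern was common.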

How the data were processed

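The members, gene lists and tests were chosen with earlier results of these data known. The authors deposited log2 values, read from their steps at the low end as reads over a single factor for each library. The table's name gives another unit, per gene length. Normalized counts up to 1 are listed as 0. The submitters' processing notes name CASAVA 1.8, DESeq and rn5 without saying what for. No aligner, counting rule or strand setting is given in those sources, so antisense reads cannot be told apart. Reads were estimated by dividing summed normalized counts by the worth of 1 read (0.519 to 1.03). Low values came out whole to 0.01 read in 38.5% to 54.6% of cases by library, so no count model was used.

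Log2(normalized count + 1) was tested with limma 3.58.1 in R 4.3.3 (intensity trend, two-sided, Benjamini-Hochberg adjustment) on the 16809 genes that reached 1 in 3 or more libraries, after a check on simulated data. Intervals are at 95%. Fold changes on this scale understate low genes. List names matched for 165 of 167. Named were the members and, per list, the 2 genes of highest mean and the 2 most raised and 2 most lowered called genes. A further 22 genes were named, and the ratios computed, after values were seen. A few genes these rules would name are not reported here. The 3 nearest genes per member were named for likeness. Promoters are RefSeq's. Of 18 alternatives, 17 were listed at the start (scalings, pseudocounts 0.1 and 10, filters, variance models, a replicate block, single libraries left out) and 1, scaling to the median of genes tested, was added after seeing the data.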

Additional observations from a re-analysis of the deposited data

How the results depend on the processing

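Over 18 alternatives Runx1 (-5.12 to -4.09) and Runx3 (0.514 to 1.10) kept direction and call. Scaling to the library median gave Runx2 -0.0632, Cbfb -0.185, Sp7 -0.26, Ctnnb1 -0.182, Nedd4 -0.27, Foxa2 -0.038, Bmpr1a -0.262, Hdac6 -0.18, Kat6a -0.179 and Gata2 -0.0289. Quantile normalization gave Runx2 0.513, Cbfb 0.222, Wwp2 0.519, Twist1 0.164, Cebpb 1.31 and Sp4 0.0228, and 12 enzymes called in place of 7. Scaling to the median of genes tested, added after seeing the data, gave Runx2 0.528, Cbfb 0.406, Wwp2 0.25, Pth1r 0.0497, Tle5 0.0153, Twist1 0.182, Cebpb 0.107 and Sp4 0.242, with 12 enzymes called and 1 SP gene in place of 4. Cyclic loess gave Runx2 0.317, Sp7 -0.132, Wwp2 0.18, Hdac6 -0.105 and Cebpb 0.436, and array weights Runx2 0.251, Sp7 -0.0734 and Wwp2 0.111. The cause was not tested. Calls of Vegfa, Sp1, Sp2 and Sp3 were lost under scaling to the median of genes tested, of Smad3, Sp2 and Zbtb7b under quantile normalization and of Atf4 under scaling to the library median. Leaving out a library gave ranges of 0.151 to 0.305 for Runx2, -0.275 to 0.302 for Sp7, -0.0291 to 0.115 for Nedd4, -0.232 to 0.107 for Wwp2, -0.169 to 0.825 for Mepe, -0.249 to 0.0102 for Twist1 and -0.718 to 0.245 for Cebpb. Of 1061 values of the other named genes, 987 kept direction and call. A replicate block changed no call of the 5 members (Runx2 adjusted p 0.0775 in limma), called Alpl, Pth1r and Jun lower, and gave 12876 genes in place of 12860. Same-numbered libraries correlated at 0.064, -0.076 and 0.047 in their deviations from the group means. Not every library correlated best with its own number. With 3 libraries per group, centred on their means, these values cannot show whether the numbers pair the libraries. At 34.4 to 44.2 reads, counting error limits the size of the Runx1 difference.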
